A study of Mus musculus with 8 samples.

Results

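The mitochondrial genome of the mouse was read here through its CpG sites, with each CpG treated as 1 region. All rows of the mitochondrial chromosome were taken from the 4 deposited tables of CpG methylation, with their level and their number of reads. The mouse reference (GRCm38, mm10) holds 287 CpGs on this chromosome, of which 235 were listed in at least 1 table and 233 in all 4. The female B cell library listed 235 and the other 3 libraries 233 each, among 20197082 and 19989740 CpGs of the whole genome in the female B and T cell libraries, and 19595981 and 19985683 in the male ones. A table holds only CpGs with at least 5 reads and joins both strands of a CpG.

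The cells were naive CD4+ T cells (sorted as CD4+, CD62L high, CD44 low, CD25-) and resting CD43- B cells isolated from spleens of C57BL/6J mice of both sexes aged 6 to 8 weeks. All groups shared the strain and the tissue, and the labels name no engineered allele and no treatment. Each biological replicate pooled cells of several mice. The labels gave 8 samples in 4 groups of 2, 1 for each sex and cell type, but 1 table per group, named with a number that matches a single sample of its group. The descriptions of both samples of a group name this same table. Whether the other sample was joined to the numbered one is not given in the sources used here. The analysis therefore had 4 libraries and no spread between replicates of a group.

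The assay was WGoxBS, whole genome sequencing after oxidation and bisulfite, in which 5-methylcytosine is read as C and unmodified or hydroxymethylated cytosines are converted and read as T. A cytosine that escapes conversion is also read as C, so a level close to 0 can also hold unconverted bases. Mitochondrial DNA is a small circular molecule present in many copies per cell. It carries genes for ribosomal RNAs, transfer RNAs and subunits of the respiratory chain, with little DNA between them apart from the control region, where replication and transcription start. It is not packed in nucleosomes, whether its CpGs are methylated in mammals is debated, and pieces of it have been copied into the nuclear chromosomes, where such copies can compete for the same reads.

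The annotation (GENCODE M21) holds 37 mitochondrial genes, namely 2 for ribosomal RNAs, 22 for transfer RNAs and 13 for proteins. Coordinates count from 1 at the first base of mt-Tf, the gene of the phenylalanine transfer RNA. The control region runs from base 15423 to base 16299 (877 bases). A search of the chromosome against the nuclear reference found 2 copies with at least 98% identity over at least 200 bases. The longer one lies at chr1:24611535-24616188 on the minus strand. It matches mitochondrial bases 6390 to 11042 with 99.94% identity, and differs at 3 positions in 4654 aligned bases. The shorter one lies at chr12:97061428-97061792 on the plus strand, and matches bases 15675 to 16039 of the control region with 99.73% identity and 1 difference. The windows below are shown because these differences are what tells a mitochondrial read from a nuclear one. Each is printed along the plus strand of the mitochondrial chromosome, 5′ to 3′, with the differing base in capitals.
Mitochondrial mt-Nd3, bases 9446 to 9475: ccagaagagagtaatTaacctgtacactgt
Copy on chromosome 1, same stretch: ccagaagagagtaatCaacctgtacactgt
Mitochondrial control region, bases 15902 to 15931: tcatgcatttggtatCtttttattttggcc
Copy on chromosome 12, same stretch: tcatgcatttggtatTtttttattttggcc

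In tokens that give the mitochondrial base, its position and the nuclear base, these are T9461C and C15917T. The other differences of the copy on chromosome 1 are A6393T, close to its end in mt-Co1, and 1 additional base in the copy beside position 9825 in mt-Tr, the gene of the arginine transfer RNA. Bisulfite turns an unmethylated C into T, so T9461C and C15917T can be read only from the strand on which the difference is between A and G.

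The next windows show CpGs that are named in the comparisons below, with the CpG in capitals. By a criterion given below, CpG 2247 in mt-Rnr2 stood above the pooled level of the other mitochondrial CpGs in both B cell libraries. CpG 12875 in mt-Nd5 did so in both T cell libraries. CpG 14681 in mt-Cytb had the most methylated reads of the CpGs described singly. CpG 15819 was the control region site with the highest mean level.
CpG 2247, bases 2233 to 2262: taagtttgaaatttCGgttggggtgacctc
CpG 12875, bases 12861 to 12890: gtaatcggaagcctCGccctcacaggaata
CpG 14681, bases 14667 to 14696: ttgacccgattcttCGctttccacttcatc
CpG 15819, bases 15805 to 15834: agggccatcaaatgCGttatcgcccatacg

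The libraries held 280919817 to 354634149 reads at CpGs, with a median of 14 to 17 reads per autosomal CpG. Cell identity was checked at promoters of genes that mark each cell type, taken as 1000 bases on either side of the gene start. Promoters of Cd3d, Cd3e and Cd3g, subunits of the T cell receptor complex, were 1.23% to 2.76% methylated in T cells and 84.9% to 94.9% in B cells. Those of Ms4a1, which encodes CD20, and of Cd79a and Cd79b, which encode the signalling subunits of the B cell receptor, were 8.36% to 13.8% methylated in B cells and 37.9% to 95.2% in T cells. The labels and the markers pointed the same way in all 4 libraries.

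Mitochondrial CpGs were read far more deeply than nuclear ones. The median number of reads per mitochondrial CpG was 738 for female B, 658 for female T, 662 for male B and 583 for male T libraries. These medians were 43.4, 38.7, 47.3 and 36.4 times the autosomal median of the same library. The mitochondrial CpGs took 0.0476%, 0.0437%, 0.0518% and 0.0388% of the reads at autosomal and mitochondrial CpGs together, in the same order. Whether duplicate reads had been removed is not given in the sources used here, and removal caps the depth of a small molecule, so the ratio is not a count of mitochondrial genomes per cell.

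**Figure D1:**
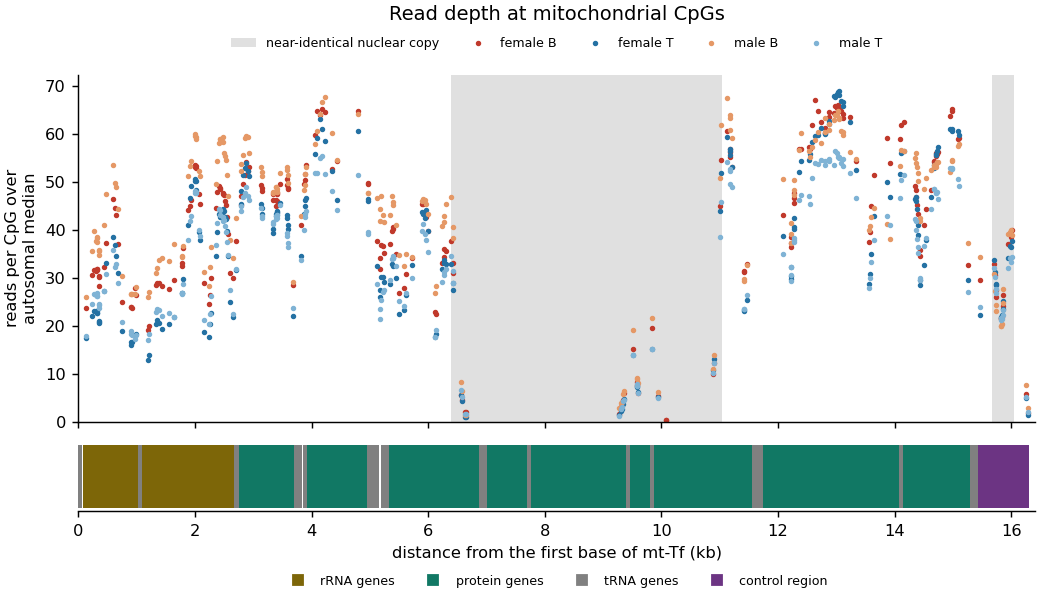
Upper panel: reads at each listed mitochondrial CpG over the autosomal median of the same library (vertical axis, ratio) against distance from the first base of mt-Tf (kb), 1 point per CpG and library, with grey bands over the near-identical nuclear copies on chromosomes 1 and 12. Lower panel: annotated genes and the control region. The 4 libraries trace the same profile, which breaks off inside the copy on chromosome 1, where 52 CpGs are in no library.

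Depth along the molecule followed the same course in all libraries. Between libraries, Pearson's r of the depths over the 233 shared CpGs was 0.928 to 0.985, a description across sites that share their sequence and are not independent replicates. The deepest site by summed reads was CpG 13028 in mt-Nd5, which encodes a subunit of complex I, with 1122 reads in female B, 1168 in female T, 908 in male B and 884 in male T cells. The shallowest were CpGs 10074 and 10083 in mt-Nd4l, both listed only in the female B cell library with 5 reads each. The 6 CpGs within 300 bases of either end of the linear reference sequence had a median of 462 reads in female B, 336 in female T, 432 in male B and 339 in male T cells. One of them, CpG 16011, lay in the copy on chromosome 12. The 194 CpGs farther from the ends and outside the near-identical copies had 786, 723.5, 696 and 631 reads in the same order. The molecule is a circle, and reads that span the ends of the linear reference may not be placed; their part in the lower depth was not tested.

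All 52 reference CpGs that no library listed lay inside the stretch matched by the copy on chromosome 1. Of the 75 mitochondrial CpGs in that stretch 23 were listed, and of 75 CpGs of the copy itself 12 were listed in any library. The stretch covers 3 protein genes that had no listed CpG at all. These were mt-Co2, a subunit of complex IV with 16 reference CpGs, and mt-Atp8 and mt-Atp6, subunits of the ATP synthase with 1 and 10. The transfer RNA genes mt-Ts1 and mt-Tk, with 1 reference CpG each, had none listed either. Of mt-Co3, a further complex IV subunit, 5 of 14 CpGs were listed.

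Inside this copy the listed CpGs were those close to a difference or to an end of the match. The 23 listed CpGs lay 14 to 258 bases from the nearest such position, and the 52 unlisted ones 302 to 1529 bases away. The distances of listed and unlisted sites did not overlap. Within 100 bases, 7 of 7 CpGs were listed, and their median was 526 reads in female B, 467 in female T, 537 in male B and 462 in male T cells. At 101 to 200 bases, 12 of 12 were listed, with medians of 94, 92.5, 101.5 and 90 reads. At 201 to 300 bases, 4 of 4 were listed, with 19.5, 8, 9.5 and 12.5 reads. No CpG further away was listed, 7 at 301 to 400 bases and 45 beyond. The 12 listed CpGs of the nuclear copy lay 16 to 189 bases from such a position.

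**Figure D2:**
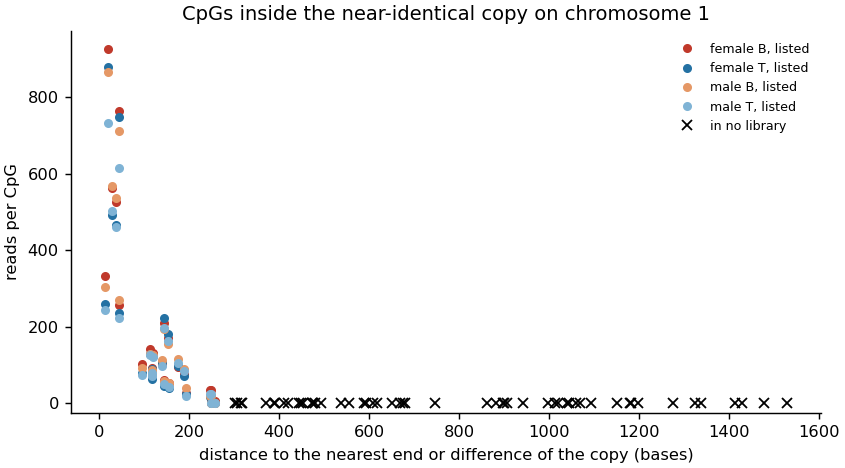
Reads per CpG (vertical axis) against the distance in bases to the nearest end or difference of the copy on chromosome 1, for the 75 mitochondrial CpGs it matches. Circles are CpGs listed in at least 1 library, drawn at 0 for a library that did not list them. Crosses, drawn at 0, are the 52 that no library listed. Listed CpGs end at 258 bases and unlisted ones begin at 302.

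Nuclear copies had the level of nuclear DNA. The listed CpGs of the copy on chromosome 1 were 85.9% methylated in female B, 96.1% in female T, 89.2% in male B and 95.8% in male T cells, from 65 to 95 reads per library. Those of the copy on chromosome 12 were 89.3%, 91.9%, 93.1% and 87.7% methylated. A copy on chromosome 2, with 97.36% identity over 3260 aligned bases, had all 55 of its CpGs listed in at least 1 library and was 94.5%, 91.2%, 92.0% and 92.6% methylated. In the stretches matched by the 2 near-identical copies, the mitochondrial share was 0.369% in female B and 0.748% in male B cells, and 0.0735% and 0.0814% in female and male T cells. Outside them it was 0.264%, 0.725%, 0.0733% and 0.0701% in the order just given. The share inside was the higher one in 4 of 4 libraries, with intervals that overlapped those outside, and the part of nuclear reads in it was not tested. With copies of at least 90% identity over at least 100 bases the libraries differed in direction. The share inside was then lower in female B (0.268% against 0.275%) and male T cells (0.0599% against 0.0840%). It was higher in female T (0.0754% against 0.0707%) and male B cells (0.82% against 0.62%), and only the male B intervals did not overlap.

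Depth inside the 2 near-identical copies, over CpGs that were listed, was 0.379 and 0.434 times that outside in female B and T cells, and 0.407 and 0.468 times in male B and T cells. The geometric mean of 0.421 was below 1 in 4 of 4 libraries (exact permutation test over signs, 2-sided, p = 0.13, the smallest that 4 libraries allow). The ratio was 0.881 with copies of at least 90% identity over at least 100 bases, and 0.176 over the near-identical copies with unlisted CpGs counted as 0 reads. The female B ratio of 0.379 includes CpGs 10074 and 10083, listed at 5 reads in that library alone. Over the CpGs listed in all 4 libraries, the female B median was 349 reads inside the near-identical copies and 781 outside. The control region stretch matched on chromosome 12 kept all 13 of its CpGs in every library, at medians of 468, 489, 383 and 444 reads. Each of these CpGs had at least 281 reads in every library.

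Very few mitochondrial reads were methylated. The share was 0.271% in female B cells (440 of 162344 reads, 95% Wilson interval 0.247% to 0.298%), and 0.0733% in female T cells (108 of 147287, 0.0607% to 0.0885%). It was 0.727% in male B cells (1035 of 142442, 0.684% to 0.772%), and 0.0709% in male T cells (92 of 129679, 0.0579% to 0.0870%). These intervals and those below describe counting error only, and take each CpG of each read as an independent draw. Molecular identifiers were not used and 1 read can cover several CpGs, so the intervals can be too narrow. On the autosomes 80.3%, 78.6%, 81.2% and 78.9% of reads were methylated in the same order. Both B cell shares lay above both T cell shares, the T cell libraries were within each other's interval, and the male B cell share was the highest.

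The B minus T difference was 0.427 percentage points over the 4 libraries. The exact permutation test over libraries gave p = 0.333, which is the smallest value that 2 against 2 libraries allow. The difference was positive in both sexes, as the shares above show, and it was 0.199 points without the male B cell library and 0.654 points without the female B cell library. Median levels over CpGs were 0.238% in female B, 0% in female T, 0.710% in male B and 0% in male T cells. In T cells most sites had no methylated read at all, 154 CpGs in the female and 162 in the male library, against 46 and 13 in B cells. The T cell levels of single sites are thus limited by counting, since a CpG at the median depth of 583 to 658 reads had less than 1 methylated read on average.

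CpG-rich promoters of the same libraries, low in methylation, also stood higher in both B cell than in both T cell libraries. Over 8190 CpG-rich autosomal promoters, defined by at least 55% GC and an observed over expected CpG ratio of at least 0.6 within 500 bases of the gene start, the median level was 0.728% in female B and 0.355% in female T cells. It was 1.44% in male B and 0.398% in male T cells. The lower quartile of these promoters was 0.245%, 0.0959%, 0.551% and 0.0998%, in the order of the libraries used throughout (females before males, B before T). On pooled reads, the measure used for the mitochondrial CpGs, the promoter shares were 2.11%, 1.78%, 2.69% and 1.82% in that order. The lowest library was female T for the promoters and male T for the mitochondrial CpGs. In proportion, B stood less far above T at the promoters. The promoters and the mitochondrial CpGs thus both placed male B cells highest, female B cells next and the T cells lowest. Incomplete conversion would add C reads to both; its part in the mitochondrial difference was not tested, and the spike-in controls for conversion were not analysed here.

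**Figure D3:**
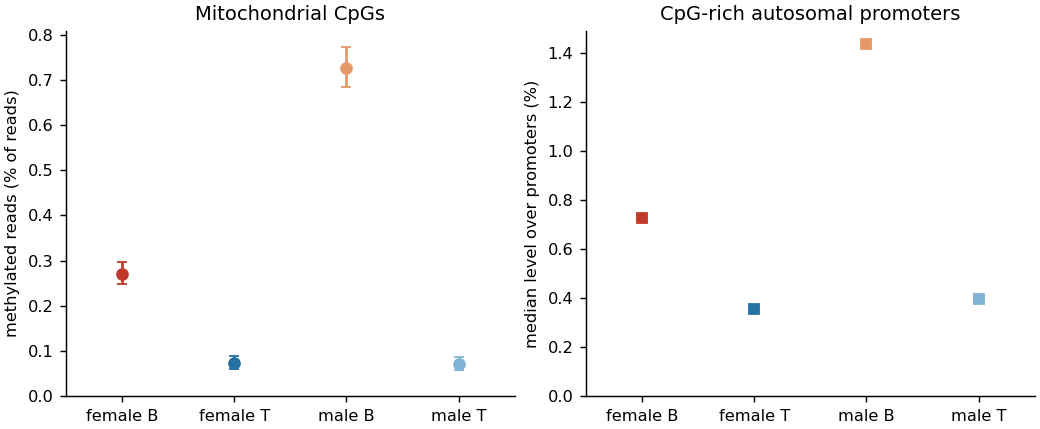
Left: methylated share of mitochondrial reads per library (% of reads), with 95% Wilson intervals as bars. Right: median level over 8190 CpG-rich autosomal promoters (%), 1 value per library. In both panels male B cells are highest (0.727% and 1.44%), female B cells follow (0.271% and 0.728%) and the T cell libraries are lowest.

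Most single CpGs followed the B over T order. At 152 of the 233 CpGs listed in all libraries (65.2%), both B cell levels were above both T cell levels, and at 0 CpGs were both T cell levels above both B cell levels. Among all 18685019 CpGs of the autosomes, X and mitochondrial chromosome listed in all 4 libraries, the share with both B above both T was 16.3%. The share of all CpGs in the opposite order is not given here, so the count of 0 has no background to be read against. Depth differs between these shares, with a median of 14 to 17 reads per autosomal and 583 to 738 per mitochondrial CpG. The 152 mitochondrial sites share the same 4 libraries and are not independent. In female libraries B was above T at 172 CpGs, below at 29 and equal at 32, and in male libraries the counts were 215, 7 and 11. Within B cells the male level was above the female at 196 CpGs and below at 27. Within T cells it was above at 63, below at 60 and equal at 110, all 110 with no methylated read in either T cell library. No methylated read was seen in any library at 8 of these 233 CpGs.

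Levels of single sites hardly carried over from one library to another. Across the 233 CpGs, Pearson's r of the levels was 0.167 between the 2 B cell libraries, -0.0362 between the 2 T cell libraries, and -0.0267 to 0.0371 for pairs of a B and a T cell library. These correlations describe sparse counts of sites that share libraries. The variance of the counts over that of binomial sampling at 1 common share was 1.18 in female B, 1.08 in female T, 1.29 in male B and 0.971 in male T cells, where 1 is sampling alone.

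A CpG was above the rest in a library when its lower 95% Wilson bound exceeded the pooled share of all other mitochondrial CpGs there. This held for 15 CpGs in female B (6.38% of those listed), 13 in female T (5.58%), 12 in male B (5.15%) and 13 in male T cells (5.58%). It held in 2 libraries for 8 CpGs, in 1 library for 37 and in 3 or 4 libraries for none. The 8 were CpGs 2247 and 2383 in mt-Rnr2, 3395 in mt-Nd1, 9305 in mt-Co3, 12087 and 12875 in mt-Nd5, and 14507 and 14681 in mt-Cytb. With the exact Clopper-Pearson interval, or with a wider Wilson interval, 0 CpGs were above the rest in 2 libraries.

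The counts behind these 8 sites were small. CpG 2247, in the gene of the large ribosomal RNA, had 4 methylated of 418 reads in female B (0.957%) and 7 of 395 in male B (1.77%), against 1 of 299 in female T and 0 of 326 in male T cells. CpG 9305 was the other one above the rest in both B cell libraries, with 1 of 54 and 2 of 54 reads, and it lies inside the stretch copied on chromosome 1. CpG 14681 in mt-Cytb, the cytochrome b of complex III, had 14 of 749 reads in male B cells (1.87%, 1.12% to 3.11%). It had 1 of 919 in female B, 0 of 911 in female T and 2 of 775 in male T cells, where it was also above the rest.

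Both T cell libraries were above the rest at CpGs 3395, 12087 and 12875. At CpG 12875 these were 3 of 1066 reads in female T and 3 of 869 in male T cells, against 3 of 1080 in female B and 5 of 851 in male B cells. At CpG 3395 they were 2 of 738 and 2 of 685 reads, and at CpG 12087 they were 2 of 658 and 2 of 558. The remaining 2, CpGs 2383 and 14507, were above the rest in female T cells with 2 methylated reads each, and in 1 B cell library, female for CpG 2383 (6 of 816) and male for CpG 14507 (10 of 678).

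The control region and the genes had like shares. In the control region, all 16 reference CpGs were listed in every library. The share was 0.277% in female B (20 of 7221 reads), 0.0430% in female T (3 of 6976), 0.764% in male B (45 of 5894) and 0.0638% in male T cells (4 of 6274). In all genes it was 0.271%, 0.0727%, 0.721% and 0.0720%. Control region minus genes was thus positive in both B cell libraries and negative in both T cell libraries, with a mean of 0.00275 percentage points (exact permutation test over signs, 2-sided, p = 0.875). With every CpG weighted equally the mean was -0.0332 points, negative in 4 of 4 libraries (exact permutation p = 0.13, the smallest possible). It was also negative outside the copies (-0.0725 points, over 3 control region CpGs) and without the male B cell library (-0.0105 points), so no direction can be given.

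Levels at single control region CpGs rested on few methylated reads, and not all sites followed the B over T order. Methylated reads per site were 0 to 4 in female B, 0 or 1 in female T, 0 to 7 in male B and 0 or 1 in male T cells. The highest mean level was that of CpG 15819, with 3 of 368 reads in female B (0.815%), 1 of 372 in female T, 3 of 281 in male B (1.07%) and 1 of 347 in male T cells. Of the 16 CpGs only this one was above the rest in a library, in female B cells. CpG 16011 had 7 of 545 reads in male B (1.28%), 1 of 679 in female B and none of 642 and 550 in female and male T cells. CpG 15833 had 4 of 285 reads in male B cells (1.40%), the highest single level of the region, 1 of 373 in female B and none in T cells.

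The other sites of the region were as low. CpGs 15825 and 15716 had 3 of 281 and 4 of 383 methylated reads in male B cells, and 1 of 364 and 1 of 519 in female B cells. CpGs 15992, 15856 and 15465 had 5 of 560, 3 of 347 and 4 of 480 in male B cells, and 4 of 656, 0 of 410 and 0 of 502 in female B cells. Male T cells had 1 of 382 methylated reads at CpG 15465 (0.262%) and 1 of 341 at CpG 15825 (0.293%, beside 0.275% in female B), both above the female B level. Male T cells also had 1 of 533 at CpG 15992. At CpGs 15743 and 15856 female B and both T cell libraries had no methylated read. At CpGs 15700, 15738, 15743, 15865, 15950 and 15984 each male B level was 2 methylated reads, of 431, 341, 323, 389, 547 and 553, and female B levels were 0 to 3 methylated reads. CpGs 16251 and 16282, next to the end of the linear reference, had no methylated read in any library. They had 84 to 107 and 25 to 41 reads, so that the Wilson upper bound reached 4.37% and 13.3%.

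The ribosomal RNA genes had shares like those of the whole molecule. The gene of the small ribosomal RNA, mt-Rnr1 (bases 70 to 1024, 22 CpGs), had 0.271% in female B, 0.0338% in female T, 0.759% in male B and 0.0914% in male T cells. The gene of the large one, mt-Rnr2 (1094 to 2675, 38 CpGs), had 0.294%, 0.0510%, 0.776% and 0.0588%. Both B cell levels were above both T cell levels in each. The transfer RNA genes as a group (14 of 16 CpGs listed) had 0.316%, 0.106%, 0.541% and 0.0613%.

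Of the complex I subunits, mt-Nd1 (2751 to 3707, 23 CpGs) had 0.257% in female B, 0.0980% in female T, 0.424% in male B and 0.0899% in male T cells. Its male B share, with an interval of 0.336% to 0.536%, was below those of mt-Rnr1, mt-Rnr2, mt-Co1, mt-Co3, mt-Nd5, mt-Cytb and the control region. The intervals of these stretches in that library did not overlap that of mt-Nd1. The shares of mt-Nd2 (3914 to 4951, 8 CpGs) were 0.180%, 0.0644%, 0.619% and 0.107%. In mt-Nd4 (10167 to 11544, 12 of 21 CpGs listed) they were 0.365%, 0.0747%, 0.551% and 0.114%.

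The longest complex I gene, mt-Nd5 (11742 to 13565, 31 CpGs), had 0.266% in female B, 0.0930% in female T, 0.699% in male B and 0.0592% in male T cells. In mt-Nd6 (13552 to 14070, 6 CpGs), the protein gene on the other strand, the shares were 0.226%, 0.0251%, 0.692% and 0.0293%. Neither mt-Nd3 nor mt-Nd4l placed both B above both T. In mt-Nd3 (9459 to 9806, 4 CpGs) 2 of 634 reads were methylated in female B, 2 of 594 in female T, and none of 635 and 566 in male B and T cells. In mt-Nd4l (9877 to 10173, 3 of 6 CpGs listed) no read was methylated, of 80 to 103 per library. Both lie in the stretch copied on chromosome 1.

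For the remaining complexes, mt-Cytb (14145 to 15288, 24 CpGs) had 0.193% in female B, 0.0609% in female T, 1.08% in male B and 0.0663% in male T cells. Its male B interval, 0.939% to 1.25%, did not overlap that of mt-Nd1, while in female B cells mt-Cytb was below mt-Nd1 with overlapping intervals. The catalytic subunit of complex IV, mt-Co1 (5328 to 6872, 27 of 30 CpGs listed), had 0.319%, 0.0474%, 0.800% and 0.0682% in the usual order of libraries. In mt-Co3 (8607 to 9390) 3 of 320 reads were methylated in female B, 1 of 251 in female T, 6 of 325 in male B and none of 256 in male T cells. Both B cell shares were above both T cell shares in 11 of 13 gene and control region stretches with a listed CpG. The share of nuclear genes in this order is not given here. The stretches come from the same 4 libraries, in which the whole chromosome had this order, and are not independent results.

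**Figure D4:**
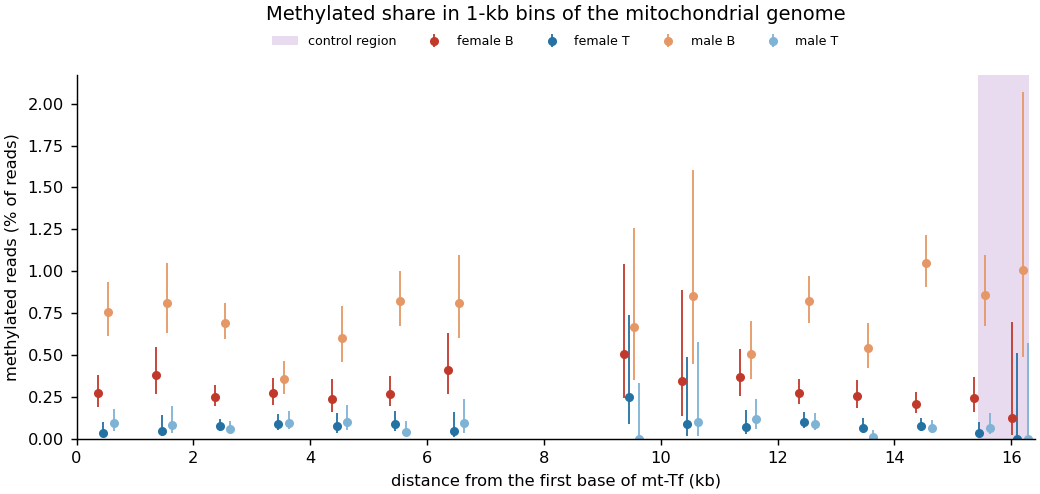
Methylated share of reads (%) in 1-kb bins along the mitochondrial genome, per library, against distance from the first base of mt-Tf (kb), with 95% Wilson intervals as bars and the control region shaded. The bins between 7 and 9 kb have no listed CpG. Male B cells are highest in each bin drawn, from 0.355% to 1.05% in bins of at least 4000 reads.

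Along the molecule, the variance of the share over that of binomial sampling was largest in male B cells. Over the 12 bins of 1000 bases with at least 4000 reads, it ran from 0.208% to 0.412% in female B, 0.0338% to 0.103% in female T, 0.355% to 1.05% in male B and 0.00899% to 0.116% in male T cells. Over all 15 bins with a listed CpG, the variance between bins over that of binomial sampling was 1.25 in female B, 0.979 in female T, 5.13 in male B and 1.07 in male T cells. Binomial sampling takes each CpG of a read as an independent draw, while a read can cover several CpGs of a bin. The male B value also rests on a single library. The lowest male B bin, bases 3001 to 4000, had 51 of 14386 reads methylated, and the highest, bases 14001 to 15000, had 177 of 16869 (0.906% to 1.22%). The same 2 bins had 0.272% and 0.208% in female B cells, the opposite order, with overlapping intervals.

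The bases beside the CpG gave no clear order. By the base before the C, the share ran from 0.243% (T) to 0.382% (G) in female B and from 0.665% (G) to 0.746% (T) in male B cells. A preceding G thus went with the highest share in one B cell library and the lowest in the other. In female B cells the interval for G (0.291% to 0.502%) lay just above that for T (0.203% to 0.290%), and in male B cells the intervals overlapped. By the base after the G, it ran from 0.238% (C) to 0.303% (T) in female B and from 0.674% (C) to 0.813% (A) in male B cells, with overlapping intervals. With the CpGs in 3 groups by GC content of the surrounding 202 bases, the high and low groups had 0.242% and 0.307% in female B and 0.737% and 0.738% in male B cells.

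Methylated and unmethylated reads were compared in tiles of 1000 bases over the whole genome, 1530541 tiles of which 13 were mitochondrial, with edgeR's quasi-likelihood test and Benjamini-Hochberg adjustment over all tiles. Of the 13 mitochondrial tiles 9 were called between B and T cells at an adjusted p under 0.05, all 9 higher in B, beside 9.34% of all tiles. With limma on log odds 4 were called, beside 2.89% of all tiles, and with tiles of 5 kb 4 of 4, beside 13.9%. The mitochondrial tiles of 1000 bases held 1146 to 24165 reads per library, while autosomal CpGs had a median of 14 to 17 reads. The mitochondrial counts and the shares of all tiles are thus not matched for depth. Fits with a library left out also dropped the sex term, so their counts cannot be put down to the library alone. The B minus T difference of the whole chromosome was 0.428 points without the female T and 0.426 without the male T cell library. Without the female T cell library 0 of 13 were called (6.93% of all tiles) and without the male T cell library 0 (6.78%). Without the male B cell library 3 were called (7.25%), and without the female B cell library 12 (7.11%). With a minimum difference of 20 percentage points, 0 of 13 passed (3.17% of all tiles), since no mitochondrial tile differed by more than 0.561 points. The test had 1 residual degree of freedom and judged each tile against a spread shared by all tiles, not by replicates of a group.

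The B minus T differences of the 13 tiles ran from 0.222 to 0.561 points. The lowest adjusted p by edgeR's quasi-likelihood test was 0.00269, for the tile that starts at base 15001 and holds most of the control region. There 22 of 8978 reads were methylated in female B, 3 of 8774 in female T, 63 of 7338 in male B and 5 of 7637 in male T cells, a mean difference of 0.502 points. The tile at 14001, over most of mt-Cytb, had the largest difference, 0.561 points (edgeR adjusted p = 0.00704). Its call was lost with limma (adjusted p = 0.0965) and, with edgeR, without the male B library (adjusted p = 0.208), without female T (0.549) and without male T (0.608). The call at 15001 held with limma (adjusted p = 0.0233) and was lost with edgeR without the same libraries, with an adjusted p of 0.0654, 0.406 and 0.308. The 4 tiles that did not pass began at 3001, 4001, 9001 and 11001, with edgeR adjusted p from 0.0687 to 0.234 and differences of 0.222 to 0.460 points. The 4 mitochondrial tiles that held too few CpGs to test began at 7001, 8001, 10001 and 16001.

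For sex, 0 of 13 mitochondrial tiles were called by edgeR (0.124% of all tiles), with 2 at an unadjusted p under 0.05, as had 78755 of the 1530541 tiles in all, and limma also called 0 (0.00464% of all tiles). With tiles of 5 kb 1 of 4 was called, higher in males, beside 0.343% of all tiles. For a B minus T difference that differed between the sexes, edgeR called 0 of 13 (0.00575% of all tiles), with 0 at an unadjusted p under 0.05 beside 66697 of all 1530541. Limma called 0 of 13 (0% of all tiles), with 3 at an unadjusted p under 0.05 beside 69020 of all 1530541. The larger B minus T difference of the male pair, visible in the shares above, was thus past the threshold in none of the 13 tiles.

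Relative to the autosomes, B cell libraries held more mitochondrial reads than T cell libraries. From the ratios given above, B over T was 1.21 as a geometric mean, higher in both sexes. The exact permutation test over libraries gave p = 0.333, the smallest that 2 against 2 libraries allow. Over the CpGs listed in all 4 libraries, the ratio was 1.13 between the female and 1.30 between the male libraries. In bulk DNA, more mitochondrial genomes per cell and a protocol that recovers more of them cannot be told apart.

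The size of this difference depended on the place. Over single CpGs, B over T ran from 0.917 to 2.19 with a median of 1.10 in females, and from 0.857 to 2.41 with a median of 1.27 in males. It was 1.24 and 1.42 in the ribosomal RNA genes, 1.09 and 1.22 in the protein genes, and 1.01 and 1.03 in the control region, in females and males. In mt-Rnr1 relative depth was 31.0 in female B, 22.3 in female T, 36.6 in male B and 25.4 in male T cells. In the control region it was 27.0, 26.9, 26.1 and 25.4, and in mt-Nd5 61.8, 59.8, 58.8 and 53.2. Over all listed CpGs inside the near-identical copies the mean ratio was 1.02 (exact permutation p = 1), but these include the 2 CpGs listed at 5 reads in female B cells alone, and over those listed in all 4 libraries it was 1.11 in females and 1.10 in males.

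B over T depth moved with GC content on the mitochondrial and on the nuclear chromosomes. Over the 199 CpGs outside the copies, Pearson's r of log2 B over T with the GC content of the surrounding 202 bases was -0.576 in females and -0.431 in males. Depth itself had r of 0.511 to 0.581 with GC in the 4 libraries. Both describe sites that share libraries and bases. Bands of GC content were compared on mean depths over the autosomal mean of the same library, for both genomes. For 36 mitochondrial CpGs at 20% to 34% GC, B over T was 1.24 in females and 1.39 in males, and for 13 at 45% to 60% GC it was 1.03 and 1.26. Autosomal CpGs of the same bands gave 1.16 and 1.19 at low GC, and 0.976 and 0.970 at high GC. In males the mitochondrial ratio was above the autosomal one in all 4 bands. In females it was above in 3 bands and level at 40% to 44% GC (1.04 for both genomes). On medians, as used for the relative depths above, the mitochondrial ratios were 1.34 and 1.42 in the lowest band and 1.06 and 1.12 in the highest. These bands were chosen after the depth profile had been seen, and the part of GC content in the B over T difference was not tested.

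**Figure D5:**
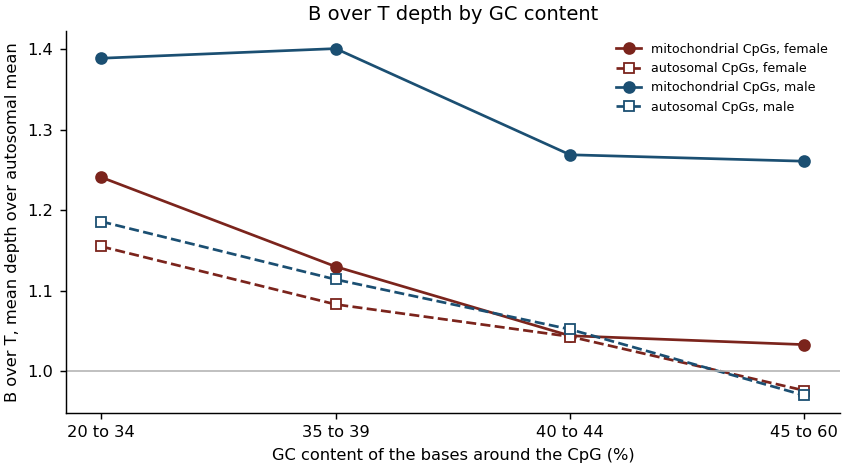
B over T ratio of mean depth over the autosomal mean (vertical axis) by GC content of the 202 bases around the CpG (%), for mitochondrial CpGs outside the near-identical copies (filled circles) and autosomal CpGs (open squares), in females and males. Female mitochondrial ratios fall from 1.24 to 1.03 with GC and meet the autosomal line at 40% to 44%, while the male ones lie between 1.26 and 1.40 and above it in each band.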

How the data were processed

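WGoxBS libraries of sorted splenic B and T cells were used as deposited. Each table the authors deposited lists CpGs covered by 5 reads or more, with the methylated fraction and the read count of each. The submitters' processing notes name Trim Galore, FastQC, Bismark 0.13.1 and mm10 without roles; read filters, duplicate removal and the joining of samples are not given in the sources used here. Files of 1 group cannot be split into samples, so 4 libraries were compared. The deposited fractions were rounded up to 3 decimals, and multiplying a level by its reads and dropping the decimals returned whole methylated reads, which gave back 100% of the levels. Positions were counted from 0 in the files and are given from 1 on GRCm38, where every listed position was a CG.

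Shares are methylated over all reads with 95% Wilson intervals. Relative depth is the median reads of mitochondrial over autosomal CpGs. Exact permutation tests, 2-sided, ran over the 4 libraries. The tiles of 1000 bases used held 5 or more CpGs common to the 4 libraries and 20 or more reads in each. They were fitted on the whole genome with edgeR 4.0.16 (glmQLFit, glmQLFTest) in R 4.3.3 and adjusted (Benjamini-Hochberg) over all tiles. The terms were library, methylation, cell type and sex. An alternative was limma 3.58.1 on log2 odds. The edgeR fit was run on simulated reads first, and limma was not. The contrast of female B and male T against female T and male B replaced the sex term to measure a B minus T difference that differs by sex. Nuclear copies were found with blastn 2.17.0, and figures drawn with matplotlib 3.10.9 in Python 3.11.15. All ribosomal RNA and protein genes, the transfer RNA genes as a group and the control region are named. Single CpGs are named where they were above the rest in 2 libraries, were deepest or shallowest, or lay in the control region. The members, lists and named sites were chosen with earlier results of these data known.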

Additional observations from a re-analysis of the deposited data

How the results depend on the processing

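B minus T of the methylated share kept its sign under all 11 alternatives tried, and ran from 0.199 to 0.654 points when 1 library was left out. It was 0.371 points outside copies of 90% identity over 100 bases, a choice made after seeing the data. The 1.21-fold relative depth of B over T fell to 1.02 over CpGs inside the near-identical copies, which include 2 sites listed at 5 reads in female B cells alone. It ran from 1.16 to 1.26 with 1 library left out. Control region minus genes, 0.00275 points, turned to -0.0332 with CpGs weighted equally and to -0.0725 outside the copies, and ran from -0.0105 (without male B) to 0.0136 with 1 library left out. Of 8 CpGs above the rest in 2 libraries, 0 were left with a wider Wilson interval, 0 with the exact Clopper-Pearson interval, 0 in 3 or more libraries, and 3 to 5 without 1 library. Depth inside over outside the copies, 0.421, was 0.881 with copies of at least 90% identity over 100 bases, and 0.176 with unlisted CpGs counted as 0 reads; it ran from 0.406 to 0.436 with 1 library left out. The 9 tiles called between B and T (9.34% of all tiles) were 4 with limma (2.89%), 0 with a minimum of 20 points (3.17%), 4 of 4 with 5-kb tiles (13.9%), and 0 to 12 with 1 library left out (6.78% to 7.25%), in a fit with no sex term. For sex, 1 of 4 tiles of 5 kb was called, higher in males (0.343% of all tiles), against 0 of 13 tiles of 1 kb (0.124%). Other alternatives of these counts stayed within 1.5 times. Each sex and cell type had 1 library, so the tile contrast for a B minus T difference that differs by sex could not be run with a library left out. The groups share no replicate number, so samples could not be paired by number. The tile fits on all 4 libraries compared B and T cells with a term for sex. Single T cell sites had 0 to 4 methylated reads.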
